A study of Arabidopsis thaliana with 8 samples.

Results

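PSAN and LHB1B2 are nuclear genes for 2 proteins of the thylakoid membrane of chloroplasts. They were selected as the probes whose platform annotation names exactly 1 gene and names PSAN or LHB1B2, which gave 2 of the 3439 probes on the array and 2 of the 691 genes that have such a probe, probe 85 for PSAN (AT5G64040) and probe 2665 for LHB1B2 (AT2G34420, also called LHCB1.5). Gene names were matched to the RefSeq gene table of assembly TAIR10.1. The files name no genome build, so no coordinates are given.

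Total RNA of Arabidopsis thaliana, ecotype Wassilevskija, was hybridised to 8 arrays. The 4 WT arrays carried RNA of wild-type plants and the 4 atpd arrays RNA of the atpd mutant, in which the delta subunit of ATP synthase is missing. Plants of both genotypes were grown on MS (Murashige and Skoog) medium. Each genotype has replicates 1 to 4. The sources used here give no allele, age, organ or light regime. They do not say if RNA for arrays of 1 genotype was drawn from 1 plant pool or from several, so the p-values are about array-to-array spread and that spread may be technical.

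Photosystem I is the pigment-protein complex that uses light to pass electrons from plastocyanin to ferredoxin. PSAN is a small subunit on its lumenal side, where plastocyanin docks, and is among the subunits encoded in the nucleus and imported into the chloroplast. LHB1B2 encodes an LHCB1 protein of the main trimeric antenna (LHCII), which binds chlorophyll a and b, feeds absorbed light to photosystem II and can move to photosystem I when its phosphorylation changes. ATP synthase of the thylakoid uses the proton gradient built up by both photosystems, and its delta subunit joins the catalytic head to the stalk.

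The deposited values are intensities in arbitrary units, from 0 to a ceiling of 100, and the number of arrays limits the precision. On each array 395 to 430 probes had the value 0. The median of the values above 0 lay between 0.279 and 0.303 on the WT arrays and between 0.613 and 0.705 on the atpd arrays. The 10 brightest probes held 22.1% to 25.9% of the summed intensity on a WT array and 13.0% to 14.7% on an atpd array. The brightness of a probe depends on the probe as well as on its transcript, so an order of probes by brightness is not an order of transcript amounts. In RNA of whole samples, fewer green cells and less RNA per cell cannot be told apart. No listed root marker and no listed gene of the chloroplast ATP synthase had a probe of its own, so ATPD could not be used to check the genotype labels.

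PSAN was lower on every atpd array. Its intensity was 15.0, 15.5, 11.3 and 12.5 on WT replicates 1 to 4 and 4.69, 4.81, 3.82 and 3.85 on atpd replicates 1 to 4. Replicates 1 and 2 were above replicates 3 and 4 in both genotypes, and the lowest WT array was still above the highest atpd array. The genotype means were 13.6 ± 2.01 in WT and 4.29 ± 0.531 in atpd (SD, n = 4 in each). Set against the WT array of the same number, the atpd value was 3.20, 3.21, 2.95 and 3.24 times lower for replicates 1 to 4.

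LHB1B2 was also lower on every atpd array. Its intensity was 60.2, 64.3, 66.4 and 58.3 on WT replicates 1 to 4 and 21.3, 23.2, 19.9 and 16.6 on atpd replicates 1 to 4. The WT arrays lay close together, with no step between replicates 1 and 2 and replicates 3 and 4, and the genotypes did not overlap. The means were 62.3 ± 3.70 in WT and 20.2 ± 2.79 in atpd (SD, n = 4 in each). By replicate number the atpd value was 2.83, 2.77, 3.34 and 3.52 times lower, so the fall was smaller in replicates 1 and 2 than in replicates 3 and 4, a difference that was not tested. No WT value of LHB1B2 reached the ceiling of 100. Genes of the LHCB1 group are very alike in sequence, so signal of other LHCB1 transcripts at this probe cannot be told apart from its own.

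**Figure D1:**
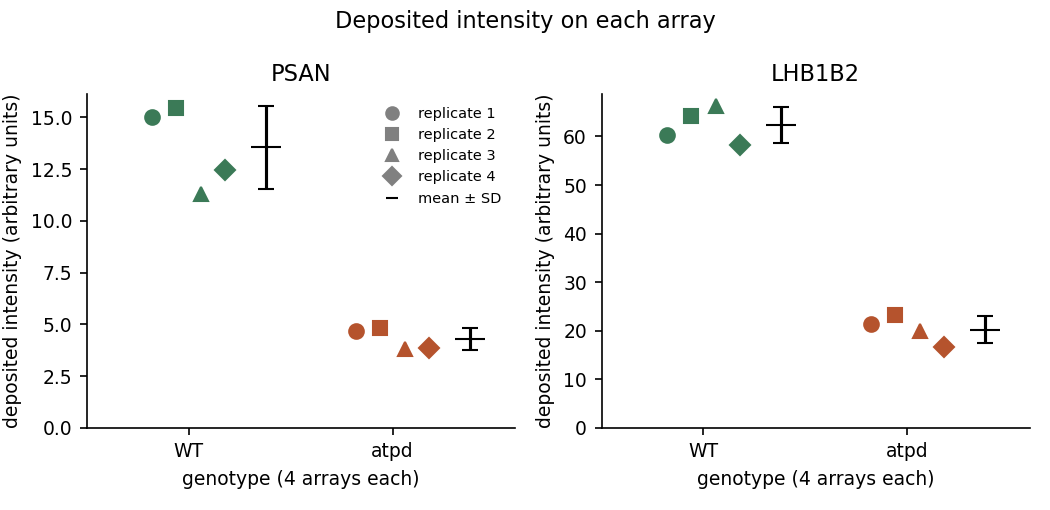
Deposited intensity (arbitrary units, axis from 0) of the PSAN and LHB1B2 probes on the 4 WT and 4 atpd arrays, with the marker shape giving the replicate number and the black bar the mean ± SD. All atpd points lie below all WT points in both panels, at 3.82 to 4.81 against 11.3 to 15.5 for PSAN and 16.6 to 23.2 against 58.3 to 66.4 for LHB1B2.

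In the deposited intensities such a separation, all 4 atpd arrays below all 4 WT arrays, was found for 9.04% of the 2921 tested probes, those with at least 3 values above 0 in each genotype. It was far more common among bright probes. Of the 100 tested probes nearest in brightness to each gene, described below, 51 for PSAN and 52 for LHB1B2 showed it. These 2 sets share most of their probes. The change was fitted with limma on quantile-normalised log2 intensities of all tested probes, with Benjamini-Hochberg adjustment. By this test 51.8% of the probes were past an adjusted p of 0.05, 30.4% lower and 21.4% higher in atpd, so a call of a lower level is common on these arrays. PSAN fell by 1.49 on the log2 scale (SE 0.23, 95% interval -2.01 to -0.97, limma adjusted p = 0.000707). LHB1B2 fell by 1.14 (SE 0.17, 95% interval -1.54 to -0.74, limma adjusted p = 0.000717). The fit treats the arrays of a genotype as independent, so these intervals may be too narrow where arrays deviate together, as described below. A fall at least as large was found for 259 tested probes in the case of PSAN and for 457 in the case of LHB1B2, each count including the gene itself. On the log2 intensities as deposited, where 8.9% of the probes were called lower in atpd, these numbers were 37 and 38.

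The 2 genes fell by nearly the same factor in the deposited values. The intensity of LHB1B2 over that of PSAN on the same array was 4.01, 4.16, 5.89 and 4.67 on WT replicates 1 to 4 and 4.54, 4.82, 5.21 and 4.30 on atpd replicates 1 to 4. The atpd arrays all fell inside the range of the WT arrays. A ratio within an array does not depend on a constant scaling of that array, but it does depend on any scaling that varies with brightness. The mean log2 ratio of PSAN to LHB1B2 differed between the genotypes by -0.024 (atpd minus WT, 95% interval -0.37 to 0.45, exact permutation test, two-sided p = 0.857, n = 4 in each). As a fold, the interval runs from 0.771 to 1.37, and differences between the 2 falls within that range were not detectable on these arrays. Between arrays of the same number the difference was -0.18 and -0.21 for replicates 1 and 2 and 0.18 and 0.12 for replicates 3 and 4, so its sign turned between these pairs of replicates. After quantile normalisation the ratio differed by -0.35.

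The size of both falls depended on how the arrays were put on a common scale, while their direction did not. As deposited, PSAN was 3.15-fold lower and LHB1B2 3.10-fold lower in atpd (log2 changes -1.66 and -1.63). With each array scaled to the same summed intensity, a choice made after seeing the data, the changes were -1.86 and -1.84. PSAN then held 0.448% ± 0.0913 of the summed intensity in WT and 0.122% ± 0.0164 in atpd, and LHB1B2 2.05% ± 0.169 and 0.576% ± 0.0849 (SD, n = 4 in each). With each array shifted to the same median the changes were -2.82 and -2.80, and with quantile normalisation -1.49 and -1.14. Cyclic loess, which removes differences between arrays that vary with brightness, left -0.90 for PSAN (limma adjusted p = 0.00465) and -0.37 for LHB1B2 (adjusted p = 0.0562), where the call of LHB1B2 was lost.

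The median of all tested probes moved with these scalings too, to 0.996 as deposited, 0.79 with equal totals, -0.17 with a common median, -0.090 after quantile normalisation and 0.030 after cyclic loess. Relative to that median, the differences were -2.65 for PSAN and -2.63 for LHB1B2 on the log2 scale in the first 3 of these, which differ only by a constant per array. They were -1.40 and -1.05 after quantile normalisation and -0.93 and -0.40 after cyclic loess. The lower calls went from 888 of 1513 after quantile normalisation (41.3% higher) to 260 of 2089 as deposited (87.6% higher) and 331 of 1906 with equal totals (82.6% higher).

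**Figure D2:**
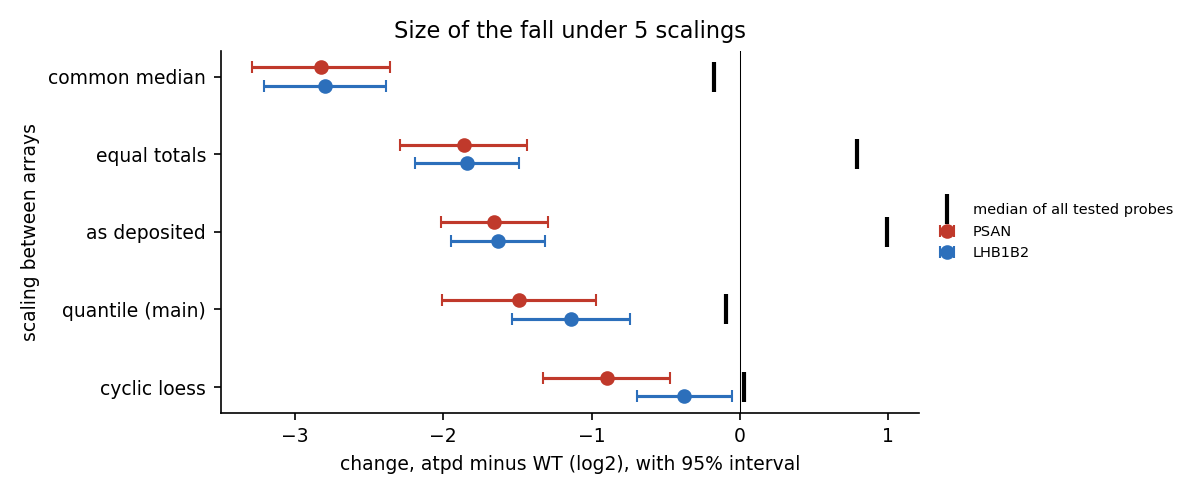
Change of PSAN and LHB1B2 (atpd minus WT, log2, horizontal axis) with 95% intervals under 5 scalings of the arrays, with black bars for the median of all tested probes. Both genes lie below that median under each scaling, from -0.90 and -0.37 with cyclic loess to -2.82 and -2.80 with a common median.

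Ranks need no scaling between arrays. Among the 3439 probes of an array, ordered from the brightest down, PSAN stood at rank 32, 29, 48 and 42 on WT replicates 1 to 4 and at rank 77, 77, 86 and 87 on atpd replicates 1 to 4. LHB1B2 stood at rank 9, 7, 4 and 8 on the WT arrays and at rank 21, 18, 19 and 26 on the atpd arrays. Both probes thus remained in the top 3% of the array in both genotypes and lost places on every atpd array. As a percentile, the share of the array's probes with a lower value, PSAN went from 98.9 ± 0.256 to 97.6 ± 0.160 (difference -1.28, 95% interval -1.69 to -0.84) and LHB1B2 from 99.8 ± 0.0628 to 99.4 ± 0.103 (difference -0.41, 95% interval -0.64 to -0.26; SD, n = 4 in each). For each gene the two-sided exact permutation test gave p = 0.0286, the smallest that 4 arrays against 4 can give. This test treats the arrays of a genotype as independent. However, replicates 1 and 2, and 3 and 4, of a genotype deviated together (correlations 0.206 to 0.777 across probes). The p-value may therefore be too small and the intervals too narrow. With arrays paired by replicate number, an alternative added after seeing the data, the differences were the same and the exact sign-flip test gave p = 0.125 for each gene, the smallest that 4 pairs can give, so a pairing of 4 cannot pass 0.05. The 4 atpd percentiles lay below all 4 WT percentiles for 29.6% of the tested probes.

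**Figure D3:**
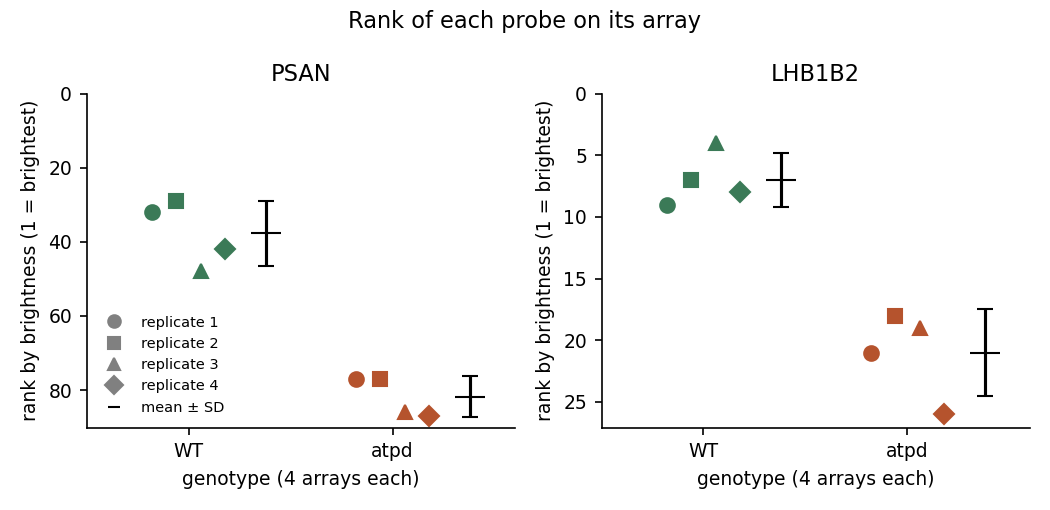
Rank by brightness of the PSAN and LHB1B2 probes on each array (vertical axis, brightest at the top, out of 3439 probes), by genotype and replicate number, with mean ± SD. PSAN moved from ranks 29 to 48 on the WT arrays to ranks 77 to 87 on the atpd arrays, and LHB1B2 from ranks 4 to 9 to ranks 18 to 26.

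The probes that passed them can be counted. On all 4 WT arrays 2 probes were brighter than LHB1B2, and on all 4 atpd arrays 15 were. Of these, 8 were dimmer than LHB1B2 on every WT array and brighter on every atpd array, and 0 went the other way. Among the 8, a single gene is named for 3, which were singled out after their values were seen. PSBW, a small subunit of photosystem II, went from 9.27 to 11.5 on the WT arrays to 24.9 to 31.8 on the atpd arrays, AT4G31530 from 10.1 to 12.7 up to 60.8 to 66.2, and AT2G27290 from 8.89 to 19.6 up to 48.0 to 57.6. PSAN had 23 probes above it on all WT arrays and 69 on all atpd arrays. For PSAN 27 probes crossed from below to above, again including PSBW, and 0 crossed in the opposite direction. The 22 probes brighter than PSAN on all 8 arrays, LHB1B2 among them, each had a lower mean intensity in atpd than in WT. They were picked by being bright, and the brightest probes held a smaller share of the summed intensity on the atpd arrays. The share of other bright probes with a lower mean was not counted. This count therefore does not show that the surroundings of PSAN differ from those of other bright probes.

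Bright probes fell more often than they rose. Of the 50 brightest tested probes by mean over all arrays, 25 were called lower and 9 higher in atpd. PSAN and LHB1B2 are among these 25. Over all tested probes 30.4% were called lower and 21.4% higher. PSAN and LHB1B2 were therefore set against the 100 probes nearest to each in mean normalised log2 brightness. The brightness of PSAN lay above that of 98.4% of the tested probes, and 28 of its 100 like probes were brighter than it. LHB1B2 lay above 99.7%, so only 9 of its like probes were brighter and the other 91 reached down to a normalised level of 2.80 in intensity units. Like probes of LHB1B2 are thus mostly dimmer than it.

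Among the 100 probes like PSAN the median change was -0.52, with the middle 50% between -1.24 and 0.73, and 17 fell at least as much as PSAN. In the same set 49 probes were called lower and 26 higher. Among the 100 probes like LHB1B2 the median change was -0.45, with the middle 50% between -1.22 and 0.57, and 30 fell at least as much as LHB1B2. PSAN is itself 1 of these 30. The 2 sets span normalised log2 levels of 1.27 to 4.26 for PSAN and 1.48 to 6.24 for LHB1B2. They share most of their probes, so their counts are not 2 independent results. In the LHB1B2 set 47 were called lower and 23 higher. The median change of all 2921 tested probes was -0.090.

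With the median of the like probes taken off on each array, and every tested probe treated in this way, PSAN fell by 1.31 on the log2 scale (SE 0.22, 95% interval -1.81 to -0.81, limma adjusted p = 0.00125) and LHB1B2 fell by 1.02 (SE 0.17, 95% interval -1.42 to -0.63, limma adjusted p = 0.00137). In this fit 50.8% of the tested probes were called in either direction, and 26.3% of the tested probes were called lower in atpd. It also treats the arrays of a genotype as independent, so its intervals may be too narrow. With replicates 1 and 2, and 3 and 4, of a genotype as random blocks, the limma adjusted p was 0.00813 for PSAN and 0.0417 for LHB1B2. There 16.5% of the tested probes were called lower. Relative to its like probes PSAN stood at 1.51, 1.62, 0.72 and 0.96 on WT replicates 1 to 4 and at 0.0039, -0.024, -0.18 and -0.22 on atpd replicates 1 to 4 (log2). On the atpd arrays PSAN was thus about as bright as the middle of its like probes and on the WT arrays clearly above it. LHB1B2 stood at 2.38, 2.58, 2.94 and 2.49 on the WT arrays and at 1.52, 1.74, 1.73 and 1.32 on the atpd arrays, above the middle of its like probes throughout. The difference depended on how like probes were chosen. With likeness judged on the WT arrays alone it was -0.71 for PSAN (adjusted p = 0.0242) and -0.39 for LHB1B2 (adjusted p = 0.0905, call lost), and with likeness judged on the atpd arrays alone -2.19 and -1.23.

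**Figure D4:**
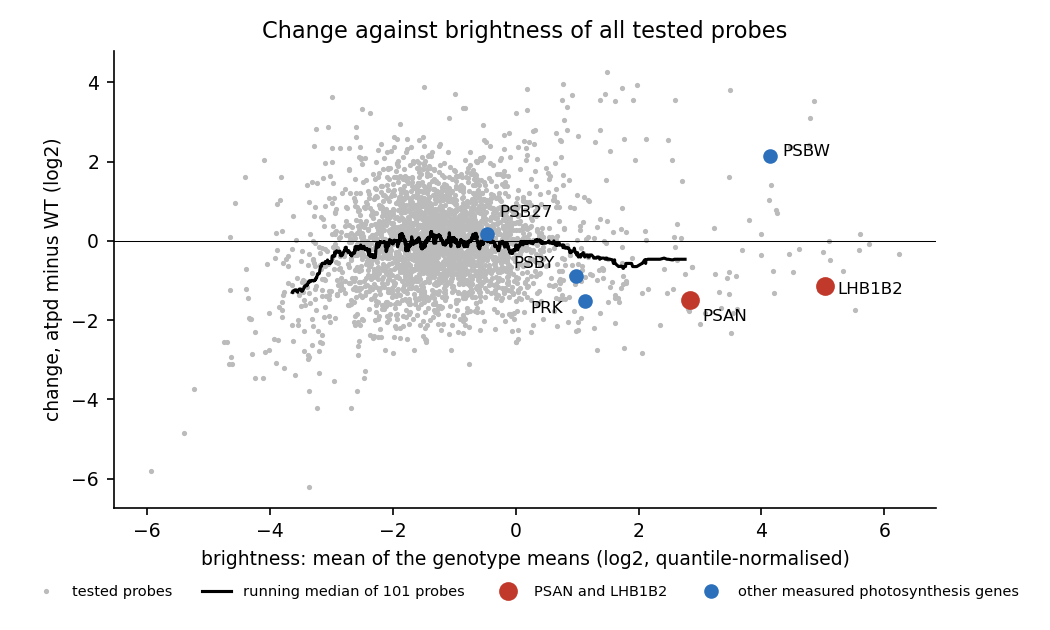
Change (atpd minus WT, log2) of each of the 2921 tested probes against its brightness (mean of the genotype means, log2, quantile-normalised), with the running median of neighbouring probes as a line. PSAN (-1.49) and LHB1B2 (-1.14), in red, lie below 0, as do PRK (-1.51) and PSBY (-0.89), in blue, while PSBW (2.14) lies far above it.

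Of the 93 loci in 9 lists, of photosystem, antenna, electron transport, ATP synthase, Calvin cycle and photosystem I assembly genes and of root markers, only 8 had a single-gene probe and 6 were tested. PSAN was the only measured one of 17 photosystem I core genes and LHB1B2 the only one of 15 genes of the photosystem II antenna. None of the 6 photosystem I antenna genes had a single-gene probe. Besides PSAN and LHB1B2, 4 loci were tested, of which 2 were lower, 1 was higher and 1 did not pass, where 30.4% of all tested probes were called lower and 21.4% higher, with a median change of -0.36 against -0.090 over all tested probes.

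PRK, the phosphoribulokinase of the Calvin cycle, lay close to PSAN in size of change after quantile normalisation. Its mean intensity as deposited went from 3.77 in WT to 1.59 in atpd, beside 13.6 and 4.29 for PSAN. The mean rank of PRK went from 91 to 306, beside 37.8 and 81.8 for PSAN. The intensity of PRK was 3.41, 3.42, 4.11 and 4.13 on WT replicates 1 to 4 and 1.55, 1.53, 1.64 and 1.63 on atpd replicates 1 to 4. The log2 change was -1.51 (limma adjusted p = 2.61e-05), and -1.30 beyond its own like probes (adjusted p = 8.41e-05). PSBY, a small subunit of photosystem II, was at 2.06, 1.94, 3.57 and 2.84 on WT replicates 1 to 4 and at 1.55, 1.55, 1.86 and 1.88 on atpd replicates 1 to 4. The log2 change was -0.89 (limma adjusted p = 0.00419), and the difference beyond like probes was -0.65 (adjusted p = 0.0230). For PSBW the same difference was 2.27 (adjusted p = 9.48e-06), opposite in sign to those of PSAN and LHB1B2. PSB27, an assembly factor of photosystem II, had deposited intensities of 0.412, 0.514, 0.501 and 0.555 on WT replicates 1 to 4 and of 1.24, 1.20, 0.928 and 0.922 on atpd replicates 1 to 4. All its atpd values lay above its WT values as deposited, but after quantile normalisation the change was 0.17 (adjusted p = 0.470) and beyond like probes 0.081 (adjusted p = 0.724).

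A further probe is annotated jointly to 3 genes for CP29, a minor antenna protein of photosystem II, and therefore names none of them; it was added after its values were seen. This probe and one annotated jointly to both genes for the gamma subunit of the chloroplast ATP synthase are the 2 joint probes whose genes all belong to 1 list. The intensity of the CP29 probe was 2.71 ± 0.276 in WT and 1.31 ± 0.0570 in atpd (SD, n = 4 in each), and the ranges did not overlap. The log2 change was -1.47 (limma adjusted p = 7.73e-05) and -1.37 beyond its like probes (adjusted p = 0.000269). Its rank went from between 103 and 137 on the WT arrays to between 429 and 529 on the atpd arrays. The gamma subunit probe was at 1.39 ± 0.292 in WT and 1.05 ± 0.0592 in atpd as deposited, with a log2 change of -1.06 (limma adjusted p = 0.000303).

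The remaining 2 measured loci were not tested, since too few of their values were above 0. SBPASE, the sedoheptulose bisphosphatase of the Calvin cycle, was listed at 0 on all 4 atpd arrays and on 3 WT arrays. AT1G22700, which the list holds as the photosystem I assembly factor PYG7 and which the reference names only by its locus, was at 0.0235 and 0.00742 on WT replicates 1 and 2, listed at 0 on WT replicates 3 and 4, and at 0.912, 0.867, 1.10 and 0.967 on atpd replicates 1 to 4. The number of its probe is 2 below that of a probe with a WT mean of at least 10, and the part of such nearness in these zeros was not tested.

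Nearness in brightness and likeness of pattern were then used to name other single-gene probes. Next to PSAN in brightness were PRA1.B6, which fell by 2.09 on the log2 scale, and AT3G06570, which fell by 1.32 (limma adjusted p = 6.07e-05 and 4.52e-05). Next below LHB1B2 was AT4G31530, which rose by 3.10 (adjusted p = 2.68e-06), so the single-gene probe closest to LHB1B2 in mean brightness moved in the opposite direction. No single-gene probe was brighter than LHB1B2 by this mean.

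Pattern was compared over the 8 arrays by the root mean square difference of normalised log2 values, each probe centred on its own mean, among 569 other single-gene probes above 0 on every array. The closest to PSAN were AT5G61470 at 0.062, AT3G51510 at 0.14 and AT3G26580 at 0.15. Of these AT3G26580 was the only one whose deposited intensity fell by a factor like that of PSAN, from 5.47 ± 0.680 to 2.12 ± 0.323. AT5G61470 was at 0.275 ± 0.0770 in WT and 0.254 ± 0.00917 in atpd before normalisation, and AT3G51510 at 0.676 ± 0.143 and 0.549 ± 0.0261. The closest to LHB1B2 were AT1G04420 at 0.18, AT3G06570 at 0.19 and AT2G25640 at 0.19. Among these AT3G06570 went from 10.7 ± 0.975 to 3.49 ± 0.198 as deposited, while AT1G04420 was at 0.756 ± 0.147 and 0.701 ± 0.0262 and AT2G25640 at 1.07 ± 0.184 and 0.919 ± 0.0715 (SD, n = 4 in each). PSAN and LHB1B2 differed from each other by 0.44, which places LHB1B2 at 73 in the order of likeness to PSAN and PSAN at 117 in that to LHB1B2.

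Of the 6 probes whose numbers lie 12, 24 or 36 before or after that of LHB1B2, 3 were bright as well, a pattern noticed in the values. The probe 12 numbers after it, which has no gene name here, was at 66.2 ± 6.60 in WT and 20.8 ± 2.66 in atpd. The probe 24 numbers after it was at 52.2 ± 13.6 and 23.8 ± 3.45, and the probe 12 numbers before it, named for CCL, at 24.4 ± 0.953 and 5.75 ± 0.557 (SD, n = 4 in each). All 3 were lower on every atpd array than on every WT array, by factors of 3.18, 2.19 and 4.24 between means of deposited intensities, beside 3.08 for LHB1B2. Such a separation held for 9.04% of the tested probes but for 52 of the 100 probes like LHB1B2 in brightness. After quantile normalisation the probes 12 after and 12 before were called lower (-1.21 and -1.81, limma adjusted p = 7.33e-05 and 0.000109), while the probe 24 after did not pass (-0.28, adjusted p = 0.348). The other 3 were dim in WT, at 0.648 ± 0.134 for the probe 24 before, 0.152 ± 0.0551 for the probe 36 before and 0.327 ± 0.111 for the probe 36 after. For PSAN the probes 12, 24 and 36 before and 36 after had WT means between 0.187 and 0.627, and those 12 and 24 after were not analysed here. The layout of the array is not given in the sources used here, and the part of this run in the values of LHB1B2 was not tested.

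**Figure D5:**
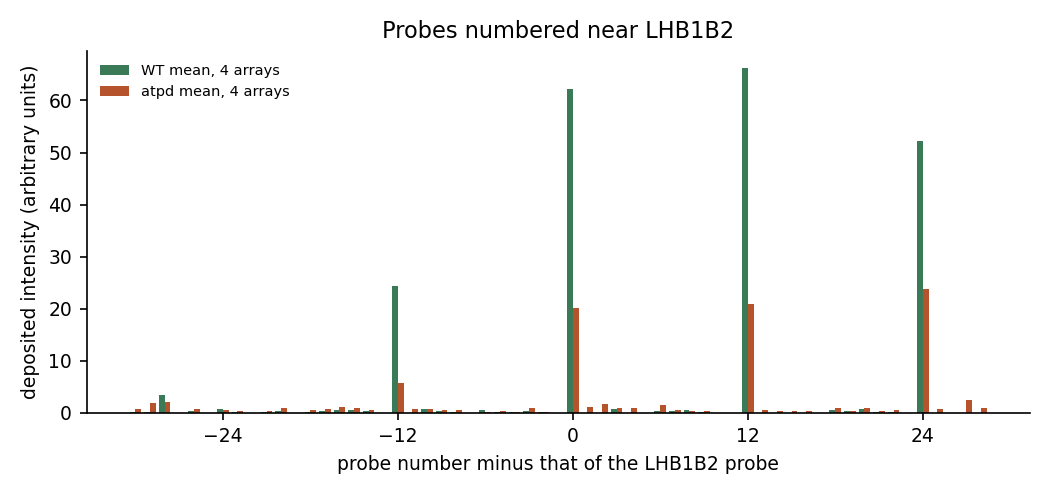
Mean deposited intensity (arbitrary units, axis from 0) on the 4 WT and the 4 atpd arrays of the probes numbered within 30 of the LHB1B2 probe, against the difference in probe number. The bright probes stand at -12, 0, 12 and 24, with WT means of 24.4, 62.3, 66.2 and 52.2, and each is dimmer in atpd.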

How the data were processed

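The authors' deposited table holds linear intensities, 1 for each probe of each array. The sources used here do not say how background, scaling, zeros and the ceiling of 100 were handled. The annotation supplied with the table names 1 gene for 692 probes (690 matched the reference table), several for 870 and none for 1877.

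Values at 0 were taken as missing, log2 intensities were quantile-normalised over all probes, and the 2921 probes with at least 3 values per genotype were fitted with limma 3.58.1 in R 4.3.3 (lmFit and eBayes, two-sided, Benjamini-Hochberg over all of them, threshold 0.05). The same fit was run after each array's median over the 100 probes nearest in mean brightness had been taken off. Percentiles and within-array ratios were compared by exact permutation (scipy 1.17.1), with 95% intervals by inverting the test. The fits were tested on simulated data in which few probes changed, as many up as down, with independent noise on each array. That simulation does not cover changes as widespread as those called here, or arrays that deviate in pairs.

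Named genes are PSAN, LHB1B2, list loci with a single-gene probe, the nearest single-gene probes in brightness and the 3 most alike in pattern for each member. The members, lists and alternatives were chosen with earlier results of these data known. Alternatives were other scalings, filters, a pseudocount, replicate and array-pair blocks, each array left out, and other sets of like probes.

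Same-numbered arrays of the 2 genotypes deviated together from their genotype means (correlations 0.283 to 0.374 across probes, against 0.184 to 0.289 for other numbers within replicates 1 and 2 or 3 and 4), so the numbers were taken as pairs in the replicate block. These 2 ranges overlap, so the numbers are not clearly pairs. Between replicates 1 and 2 of 1 genotype and 3 and 4 of the other, correlations were -0.326 to -0.237. Within a genotype, replicates 1 and 2, and 3 and 4, correlated at 0.206 to 0.777, and arrays across that split at -0.857 to -0.592. Taking off the mean of the 4 arrays pushes correlations within a genotype below 0, so the negative values there are partly fixed in advance. Between the genotypes, shared deviation still followed this split more clearly than the single number.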

Additional observations from a re-analysis of the deposited data

Results flagged for a closer look

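Single arrays standing apart from their genotype were looked for among the named genes. Of 28 groups of 4 arrays 1 held such an array, against 1.4 from chance, and it concerned neither PSAN nor LHB1B2. AT4G31530, the single-gene probe next below LHB1B2 in brightness, had an intensity of 12.7 on WT replicate 2, while the remaining WT arrays were at 10.1 to 11.6 (3.47 against 3.15 to 3.16 after normalisation, on the log2 scale).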

How the results depend on the processing

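PSAN kept its direction and its call under all 15 alternatives other than leaving out arrays, at -2.82 to -0.90. LHB1B2 kept both under 14 of 15, at -2.80 to -0.95, and lost the call with cyclic loess (-0.37). The cause was not tested. The random block of array pairs left 924 calls and pair means left 686, where fewer independent units enter; PSAN (adjusted p = 0.00477 and 0.0354) and LHB1B2 (0.0268 and 0.0401) remained called. In replicates 1 and 2 alone the changes were -1.75 and -0.95, and in replicates 3 and 4 alone -1.23 and -1.34. Pairing by replicate number, as a block in the fit, gave 1656 calls. There the adjusted p was 0.00127 for PSAN and 0.00160 for LHB1B2, and 0.00210 and 0.00223 beyond like probes, and the ratio of both differed by -0.024 (exact sign-flip p = 0.750, n = 4 pairs). It changed no limma call of these genes. For the percentile differences (-1.28 and -0.41) the exact paired sign-flip test could not pass the threshold (p = 0.125, the smallest that 4 pairs allow). Beyond like probes, LHB1B2 was at -0.39 and not called with likeness judged on the WT arrays alone. With any 1 array left out there were 1301 to 1478 calls, -1.63 to -1.30 for PSAN, -1.23 to -1.03 for LHB1B2, and -1.56 to -1.15 and -1.16 to -0.76 beyond like probes, all called. Percentile differences then ranged from -1.38 to -1.19 and from -0.44 to -0.36, with p = 0.0571, the smallest that an exact permutation of 3 against 4 allows. The ratio ranged from -0.14 to 0.045 and turned sign without WT replicate 1 (0.045), WT replicate 2 (0.028) or atpd replicate 3 (0.025). Intensities bear no depth, and likeness of LHB1B2 in brightness is limited by the few brighter probes.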

Other observations

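Probes whose numbers follow those of bright probes were often at 0 in WT. The array holds 54 probes with a WT mean intensity of at least 10, PSAN and LHB1B2 among them. Of 158 other probes numbered 1 to 4 after such a probe, 32 (20.3%) were at 0 on at least 3 WT arrays and above 0 on all 4 atpd arrays. This was so for 14 of 159 probes (8.81%) numbered 1 to 4 before one, and for 10 of 3074 (0.325%) near none. A probe can be counted both as before and as after.

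After LHB1B2 it held for 3 of the 4 listed probes and after PSAN for 1 of 3, while it held for 0 of 3 before either gene. The probe 3 numbers after PSAN was listed at 0 on every WT array and lay between 0.618 and 0.706 on the atpd arrays. By distance after a bright probe, such probes made up 17.4% to 23.5% at 1 to 4, 0% at 5 to 10 and again 4.55% to 10% at 13 to 16, and at most 3.03% at the remaining distances up to 24. Of 44 probes numbered 12 after a bright probe 9 were bright themselves (20.5%), against 1.57% of all probes and at most 3 at any other distance from 1 to 24. These counts were made after the pattern was seen, and no test was run on them.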
